A study of Mus musculus with 31 samples.

Results

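Hepatic hexose use was followed through 6 genes, chosen by name, among the 43629 genes counted by RNA-seq in the livers of 31 mouse pups. The genes are Slc2a2 and Slc2a5, which encode the glucose carrier GLUT2 and the fructose carrier GLUT5; Gckr, a regulatory protein of hexose phosphorylation that responds to fructose phosphates; Khk, ketohexokinase; Pfkl, the liver subunit of phosphofructokinase; and Pklr, the liver and red-cell pyruvate kinase. All 6 passed the filter on low counts and were among the 17057 genes tested.

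Hexoses enter hepatocytes mainly through GLUT2, which carries glucose in both directions, and glucose is then phosphorylated. Fructose is phosphorylated by ketohexokinase at the first carbon and then cleaved, so that it bypasses phosphofructokinase and joins glycolysis above pyruvate kinase. GLUT5 is best known as the fructose carrier of the small intestine and is low in liver. Thyroid hormone acts through nuclear receptors, which bind T3 far more tightly than T4; T4 is the main product of the thyroid and is converted to T3 by the type 1 and type 2 deiodinases, the products of Dio1 and Dio2.

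All pups were C57Bl/6J, labelled as Dio1KO/Dio2KO, and were killed at postnatal day 14 after injections every other day from day 2. Triple mutants, which were also Pax8KO and, by the design, had no thyroid, received T3 and T4 together (T3+T4, 7 pups), T4 (8 pups), T3 (6 pups) or vehicle (5 pups). Control pups kept a thyroid, carried Pax8Het and received vehicle (5 pups). Every group, controls included, therefore carried both deiodinase knockouts, so no wild-type liver was measured. Doses were not given in the sources used here. Pax8 is a transcription factor needed to form thyroid follicular cells. The design set hormone given as T3, T4 or both against no hormone in pups labelled as unable to convert T4 by either deiodinase.

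Library totals ran between 4383769 and 7158919 counts and were uneven between groups. Their means were 6353684 counts in T3+T4, 5343109 in T4, 6070280 in T3, 5297107 in vehicle and 5413170 in control livers. Deposited counts for Dio1 ran between 42 and 1504, for Dio2 between 4 and 47 and for Pax8 between 2 and 28 over all libraries; where the deletions lie in these genes was not given, so the counts do not check the genotypes. All 10 hepatocyte markers on the list (such as Alb and Apob) were present in every group. Their summed level was 5077 to 6763 CPM in T3+T4 livers, 5927 to 7425 CPM in T4 livers, 5586 to 6892 CPM in T3 livers, 7343 to 7864 CPM in vehicle livers and 6455 to 7201 CPM in control livers, where CPM is the usual library-scaled count, with library sizes adjusted by edgeR's TMM method. A mean of at least 5 CPM over pancreatic acinar or skeletal muscle markers was found in 4 of 7 T3+T4 libraries, 3 of 8 T4, 2 of 6 T3, 2 of 5 vehicle and 1 of 5 control libraries. The animal numbers in the labels were also unevenly spread: numbers 54 to 85 held all 7 T3+T4 and all 6 T3 pups, but 5 of 8 T4, 2 of 5 vehicle and 1 of 5 control pups. Sex, read from sex-linked genes, was also uneven: males made up 5 of 7 T3+T4, 6 of 8 T4, 1 of 6 T3, 3 of 5 vehicle and 1 of 5 control pups, and in 4 pups, 1 in each triple-mutant group, it differed from the label, which was not given for every pup. The labels do not say which pups were littermates.

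The promoters of the 4 genes called in at least 1 comparison are printed because these genes moved in different directions with thyroid hormone. Each is the 250 bases before a RefSeq transcription start (GRCm38.p6, the mm10 assembly of the file headers), written 5′ to 3′ on the gene's strand, and capitals mark letters that match a searched motif. Pklr has separate starts for its red-cell and liver forms, and both windows are given, the one farther upstream first.
Slc2a5, chr4:150119094-150119343, plus strand: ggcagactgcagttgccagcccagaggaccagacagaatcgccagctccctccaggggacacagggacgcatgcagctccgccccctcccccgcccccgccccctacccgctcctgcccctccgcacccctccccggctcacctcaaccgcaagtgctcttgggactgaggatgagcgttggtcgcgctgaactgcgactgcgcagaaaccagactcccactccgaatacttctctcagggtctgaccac
Slc2a2, chr3:28697653-28697902, plus strand: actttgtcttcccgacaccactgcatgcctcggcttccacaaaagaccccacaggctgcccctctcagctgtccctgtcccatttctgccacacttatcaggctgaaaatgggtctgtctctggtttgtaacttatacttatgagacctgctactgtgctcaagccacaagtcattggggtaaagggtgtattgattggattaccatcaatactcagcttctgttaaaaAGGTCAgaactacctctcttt
Gckr, chr5:31297313-31297562, plus strand: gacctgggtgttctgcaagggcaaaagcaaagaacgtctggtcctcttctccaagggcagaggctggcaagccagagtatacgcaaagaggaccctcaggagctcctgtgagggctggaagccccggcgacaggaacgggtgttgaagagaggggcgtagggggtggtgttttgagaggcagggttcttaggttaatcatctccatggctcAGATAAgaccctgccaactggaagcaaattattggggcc
Pklr, upstream start, chr3:89135892-89136141, plus strand: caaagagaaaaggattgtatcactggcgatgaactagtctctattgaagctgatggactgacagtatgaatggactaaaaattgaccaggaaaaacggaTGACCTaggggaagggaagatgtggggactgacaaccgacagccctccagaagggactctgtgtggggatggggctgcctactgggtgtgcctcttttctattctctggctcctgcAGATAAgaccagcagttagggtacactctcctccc
Pklr, downstream start, chr3:89136373-89136622, plus strand: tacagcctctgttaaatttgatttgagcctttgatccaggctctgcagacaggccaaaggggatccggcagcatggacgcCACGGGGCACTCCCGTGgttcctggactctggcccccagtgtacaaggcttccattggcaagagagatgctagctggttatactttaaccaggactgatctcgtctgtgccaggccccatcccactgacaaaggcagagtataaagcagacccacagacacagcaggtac

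The motifs searched, on both strands, were the nuclear receptor core AGGTCA, its direct repeat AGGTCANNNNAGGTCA (the layout preferred by thyroid hormone receptors), the E-box CACGTG, the paired E-box-like letters CACGGGNNNNNCCCGTG and the GATA letters AGATAA. The direct repeat contains the core, so a match to it would also count as a core match. Among all 32851 RefSeq windows of this length the core was found in 14.0%, the direct repeat in 0.0152%, the E-box in 6.02%, the paired letters in 0.00304% and the GATA letters in 9.99%. Slc2a2 held the core 21 to 16 bases before its start. Gckr held AGATAA 39 to 34 bases before its start. The upstream Pklr window held the core on the other strand at 151 to 146 bases and AGATAA at 35 to 30 bases before the start. The downstream Pklr window held the paired E-box-like letters at 170 to 154 bases before the start and was the 1 window of all that did; those letters were chosen with this promoter, a known target of the carbohydrate response factor ChREBP, in mind. Khk held an E-box 71 to 66 bases before its start. None of the searched letters were found in the Slc2a5 and Pfkl windows, which says nothing about sites elsewhere.

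The genes lie on 4 chromosomes of mm10, and their exonic lengths below are the union of GENCODE M21 exons. Slc2a2 (ENSMUSG00000027690) is at chr3:28697903-28731359 on the plus strand with 5755 exonic bases, and Slc2a5 (ENSMUSG00000028976) is at chr4:150119283-150144169 on the plus strand with 3402. Gckr (ENSMUSG00000059434) is at chr5:31297443-31327314 on the plus strand with 4335 exonic bases, and Khk (ENSMUSG00000029162) is at chr5:30921431-30931248 on the plus strand with 1797. Pklr (ENSMUSG00000041237) is at chr3:89136142-89146784 on the plus strand with 3236 exonic bases, and Pfkl (ENSMUSG00000020277) is at chr10:77986947-78010083 on the minus strand with 6675. Pklr exons overlap those of Hcn3, an ion channel gene on the opposite strand. An antisense gene, 1700112D23Rik, overlaps Slc2a2 but not its exons.

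Per length, Khk was the most abundant of the 6 transcripts and Slc2a5 the least. Mean levels over the 31 livers were 88.6 CPM per kb for Khk, 51.4 for Slc2a2, 47.9 for Pklr, 37.1 for Gckr, 13.5 for Pfkl and 2.15 for Slc2a5. The order of the middle genes differed between groups. Pklr averaged 55.4 ± 6.4 CPM per kb in T3+T4 livers (SD, n = 7), 49.7 ± 7.6 in T4 livers (n = 8), 38.3 ± 12.2 in T3 livers (n = 6), 38.0 ± 3.7 in vehicle livers (n = 5) and 55.6 ± 8.0 in control livers (n = 5). Slc2a2 averaged 47.4 ± 4.5 CPM per kb in T3+T4 livers, 54.6 ± 5.6 in T4 livers, 44.2 ± 5.5 in T3 livers, 58.9 ± 4.6 in vehicle livers and 53.0 ± 3.6 in control livers. Thus the mean of Pklr stood below that of Slc2a2 in T4, T3 and vehicle livers and above it in T3+T4 and control livers, and outside vehicle livers the difference between these means was within the sum of the SDs.

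**Figure D1:**
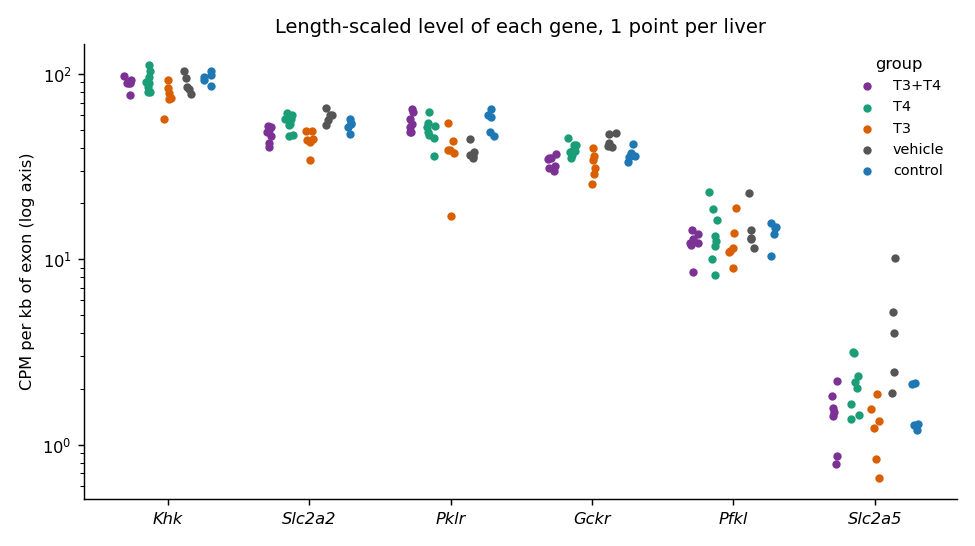
Length-scaled level of each gene, in CPM per kb of exon on a log axis, with 1 point per liver and the groups in colour (T3+T4, T4, T3, vehicle and control). Khk is highest at a mean of 88.6 CPM per kb, Slc2a2, Pklr and Gckr lie close together, and Slc2a5 is lowest at 2.15 CPM per kb with its highest points in vehicle livers.

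Changes were tested for all 17057 genes with edgeR's quasi-likelihood test, 1 mean per group over all 31 libraries, and a change was called at a Benjamini-Hochberg adjusted p under 0.05. Against control livers, vehicle livers had 1 member higher (Slc2a5; 4.92% of all genes were called higher) and 1 lower (Pklr; 4.71% of all genes were called lower). Against vehicle livers, T4 livers had none of the 6 called (0.41% of all genes were called), with 2 at an unadjusted p under 0.05 and 1, Slc2a5, called by DESeq2. Against vehicle livers, T3 livers had 3 members lower (Slc2a2, Slc2a5 and Gckr; 3.24% of all genes) and none higher (3.53% of all genes). Against vehicle livers, T3+T4 livers had the same 3 genes lower (8.45% of all genes) and Pklr higher (7.33% of all genes). The 3 hormone groups were set against the same 5 vehicle livers, so these counts are not independent.

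No member was called by edgeR in the other 7 contrasts. T4 against T3 livers left 5 members at an unadjusted p under 0.05 (0.551% of all genes were called) and DESeq2 called 1, Slc2a2. T3+T4 against T4 livers left 2 (8.61% of all genes called) and DESeq2 called 1, Gckr, while T3+T4 against T3 livers left 2 (0.0117% of all genes called) and DESeq2 called 0. Against control livers, T3+T4 livers left 0 (0.0% of all genes called), T4 livers 0 (3.54%) and T3 livers 4 (0.211%), and DESeq2 called 0 members in each. The interaction of T3 and T4 asks whether the log2 change with both differs from the sum of the log2 changes with each alone. It left 1, Slc2a5 (0.135% of all genes called), and DESeq2 called 0.

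**Figure D2:**
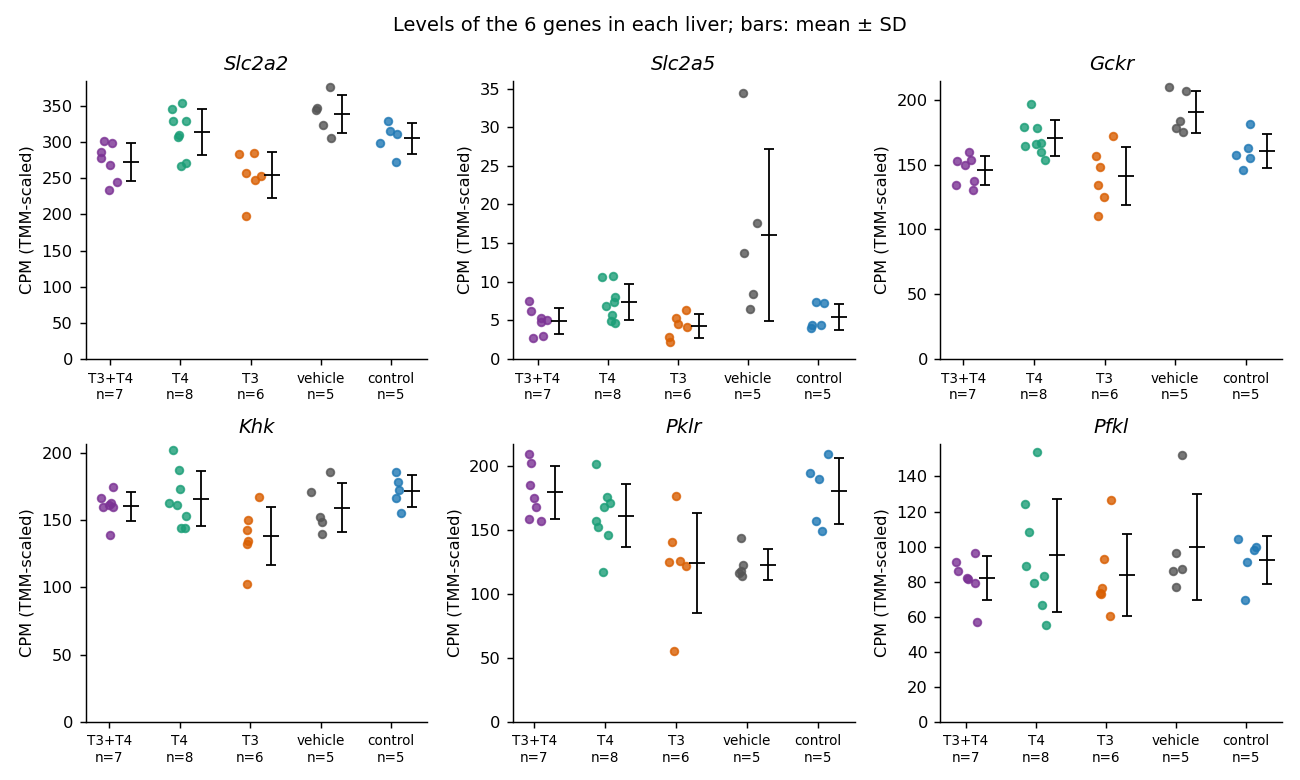
Level of each of the 6 genes in each liver, in TMM-scaled CPM, with 1 point per liver and bars for the mean ± SD of T3+T4 (n = 7), T4 (n = 8), T3 (n = 6), vehicle (n = 5) and control (n = 5). Slc2a5 is highest in vehicle livers, where 1 liver reaches 34.4 CPM, and all 7 T3+T4 and all 5 control livers lie above the vehicle livers for Pklr, whose lowest point is a T3 liver at 55.3 CPM.

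Slc2a5, the fructose carrier, showed the largest fold changes of the 6. It was 2.92-fold higher in vehicle than in control livers, and fell to 0.266 of the vehicle level in T3 livers and to 0.310 of it in T3+T4 livers. Vehicle livers held 8.40, 13.7, 17.6, 34.4 and 6.44 CPM, against 7.34, 4.40, 4.35, 4.06 and 7.24 CPM in control livers. In T3+T4 livers Slc2a5 ran from 2.68 through a median of 5.11 to 7.50 CPM, in T4 livers from 4.67 through 7.14 to 10.8 CPM and in T3 livers from 2.24 through 4.36 to 6.38 CPM. All T3 livers were below all vehicle livers, while T3+T4 and control livers overlapped the lowest vehicle liver. The deposited counts behind these levels were small, between 13 and 162 per library, so single values carry wide counting error.

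The log2 fold change of Slc2a5 was 1.54 ± 0.36 for vehicle against control (SE; edgeR adjusted p = 0.00625). It was -1.91 ± 0.34 for T3 against vehicle (edgeR adjusted p = 0.00106) and -1.69 ± 0.32 for T3+T4 against vehicle (edgeR adjusted p = 0.000661). T4 against vehicle gave -1.12 ± 0.31, which missed the threshold in edgeR (adjusted p = 0.0919) and passed it in DESeq2 (adjusted p = 0.0429). T4 against T3 gave 0.79 ± 0.32 (edgeR adjusted p = 0.252), so the difference between the hormones themselves was not called. The interaction was 1.35 ± 0.45 (edgeR adjusted p = 0.256).

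The highest Slc2a5 value belonged to vehicle animal 55, and without it the log2 fold changes were 1.07 for vehicle against control, -1.44 for T3 against vehicle and -1.21 for T3+T4 against vehicle, all still called (edgeR adjusted p = 0.0372, 0.00864 and 0.00679). T4 against vehicle was -0.64 without animal 55 (edgeR adjusted p = 0.348), and the interaction ran from 0.87 to 1.55 when single libraries were left out. Both falls kept their call under all 15 other settings and all 31 omissions of a single library. Animal 55 was kept in all of those 15 settings, and no subset of animals was also fitted without it. The difference between vehicle and control livers was not called among animals 54 to 85 alone (1.47, edgeR adjusted p = 0.668), which hold 2 vehicle and 1 control pup. Among T4 livers the 3 animals numbered below 54 had 10.8, 10.6 and 7.98 CPM, above the 5 others at 4.67 to 7.38 CPM. Within animals 54 to 85, T4 against vehicle gave -1.78 (edgeR adjusted p = 0.196). The 2 vehicle livers in that range were animals 55 and 67, the highest and lowest vehicle livers for Slc2a5, at 34.4 and 6.44 CPM. Both values from animals 54 to 85 thus lean on animal 55. GLUT5 is also made by intestine and kidney tubule, and the summed level of 7 markers of those tissues was 55.7 to 148 CPM in T3+T4 livers, 50.8 to 89.9 CPM in T4 livers, 40.3 to 75.4 CPM in T3 livers, 67.8 to 95.4 CPM in vehicle livers and 64.8 to 82.4 CPM in control livers. Only 2 of the 7, Vil1 and Fabp2, passed the filter on low counts. Umod was at its lowest possible value in all vehicle and control livers. Cdx2 was at it in all T3 and control livers, and Slc34a1 in all T3 and T4 livers. What part RNA of those tissues has in the Slc2a5 values was not tested.

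Slc2a2, the main hexose carrier of hepatocytes, changed less and only downward in the called contrasts. Vehicle livers held 306, 344, 347, 376 and 324 CPM, against 315, 311, 299, 273 and 329 CPM in control livers, and these groups overlapped. T3+T4 livers ran from 233 through a median of 278 to 301 CPM, T4 livers from 267 through 320 to 354 CPM and T3 livers from 198 through 256 to 285 CPM. Every T3+T4 and every T3 liver was below every vehicle liver, whereas T4 livers overlapped them. The log2 fold change was -0.42 ± 0.09 for T3 against vehicle (SE; edgeR adjusted p = 0.00394), that is 0.750 of the vehicle level, and -0.31 ± 0.08 for T3+T4 against vehicle (edgeR adjusted p = 0.00953). T4 against vehicle gave -0.11 (95% interval -0.27 to 0.06) and T4 against T3 0.31 ± 0.08, which missed the threshold in edgeR (adjusted p = 0.0613) and passed it in DESeq2 (adjusted p = 0.0168); with sex as a covariate it was 0.24 (edgeR adjusted p = 0.298).

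Gckr, the regulatory protein, followed Slc2a2. Vehicle livers held 175, 207, 183, 209 and 178 CPM, against 181, 157, 155, 146 and 163 CPM in control livers, with 1 control liver inside the vehicle range. T3+T4 livers ran from 131 through a median of 150 to 160 CPM, T4 livers from 153 through 166 to 197 CPM and T3 livers from 110 through 141 to 172 CPM. All T3+T4 and all T3 livers were again below all vehicle livers. The log2 fold change was -0.43 ± 0.09 for T3 against vehicle (SE; edgeR adjusted p = 0.00295) and -0.39 ± 0.08 for T3+T4 against vehicle (edgeR adjusted p = 0.00195). Vehicle against control gave 0.25 ± 0.09, which was not called (edgeR adjusted p = 0.0786), nor was T4 against vehicle at -0.16 ± 0.08 (edgeR adjusted p = 0.411). Over the 31 libraries, the centred log2 levels of Gckr and Slc2a2 differed by a root mean square of 0.122, the smallest of the 15 pairs among the 6 genes.

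Hepatocyte markers moved with both of these falls: 3 of 10 were lower in T3 than in vehicle livers (3.24% of all genes) and 7 of 10 were lower in T3+T4 than in vehicle livers (8.45% of all genes), none higher. Their summed levels above did not overlap the vehicle range in T3+T4, T3 or control livers. In T4 livers the sums overlapped it, with a median of 6554 CPM against 7400 CPM in vehicle livers. With the mean marker level as a covariate, a setting chosen after the data were seen, T3 against vehicle gave -0.32 for Slc2a2 (edgeR adjusted p = 0.0569) and -0.32 for Gckr (edgeR adjusted p = 0.0533), and T3+T4 against vehicle gave -0.20 (0.183) and -0.25 (0.0840). In such whole-liver samples, fewer hepatocytes, less RNA per hepatocyte and the larger mean library totals of T3 and T3+T4 livers cannot be told apart. Counts of abundant genes may stop rising with library size, and what part this has in the marker levels was not tested. A setting that assumed a ceiling of 2 counts per exonic base kept the T3 and T3+T4 calls of Slc2a2 and Gckr. Within animals 54 to 85, the T3 values were -0.45 for Slc2a2 (edgeR adjusted p = 0.0968) and -0.44 for Gckr (0.101), and the T3+T4 values were -0.34 (0.126) and -0.40 (0.0780), so the sizes were close and the calls were lost with 2 vehicle livers left. Without libraries holding acinar or muscle RNA the calls were also lost, at -0.44 for Slc2a2 (edgeR adjusted p = 0.132) and -0.45 for Gckr (0.135) with T3, and at -0.35 (0.152) and -0.36 (0.1504) with T3+T4. With the library total in the fit, T3+T4 against vehicle gave -0.21 for Slc2a2 (edgeR adjusted p = 0.171) and -0.28 for Gckr (0.0610). The T3+T4 call of Slc2a2 was also lost with no filter on low counts (-0.24, edgeR adjusted p = 0.0655), and the T3 call of Gckr when only the groups compared were fitted (-0.43, 0.0711).

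Pklr, the last enzyme of hepatic glycolysis, was the 1 member called lower in vehicle than in control livers and the 1 called higher in T3+T4 than in vehicle livers. Vehicle livers held 144, 116, 114, 122 and 118 CPM, against 190, 210, 195, 157 and 149 CPM in control livers, without overlap. T3+T4 livers ran from 157 through a median of 175 to 209 CPM, T4 livers from 117 through 162 to 201 CPM and T3 livers from 55.3 through 125 to 176 CPM. All T3+T4 livers were above all vehicle livers. T4 and T3 livers overlapped them: 7 of 8 T4 livers were above every vehicle liver, against 1 of 6 T3 livers. The log2 fold change was -0.55 ± 0.17 for vehicle against control (SE; edgeR adjusted p = 0.0412) and 0.54 ± 0.16 for T3+T4 against vehicle (edgeR adjusted p = 0.0206), a 1.46-fold difference. T3+T4 against control gave -0.01 (95% interval -0.33 to 0.32).

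Given alone, neither hormone changed Pklr past the threshold. T4 against vehicle gave 0.39 ± 0.16 (edgeR adjusted p = 0.284) and T3 against vehicle 0.02 ± 0.17 (edgeR adjusted p = 0.970). T3+T4 against T3 gave 0.53 ± 0.15, also not called (edgeR adjusted p = 0.138). T3+T4 against T4 gave 0.16 ± 0.14 (edgeR adjusted p = 0.564) and the interaction 0.14 ± 0.22 (edgeR adjusted p = 0.876), neither of them called. The lowest Pklr value, 55.3 CPM, came from T3 animal 61, which was also the lowest of all livers for Slc2a2, Gckr and Khk; without it T3 against vehicle gave 0.17 for Pklr (edgeR adjusted p = 0.459), -0.35 for Slc2a2 (0.00906) and -0.37 for Gckr (0.00686). The difference between vehicle and control livers lost its call when any 1 of control animals 42, 47, 49 or 50 or vehicle animals 37, 38, 55 or 67 was left out (edgeR adjusted p = 0.0521 to 0.0939), and the T3+T4 rise lost its call without vehicle animal 38 (0.52, edgeR adjusted p = 0.0544).

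The Pklr calls also depended on other settings, under which the directions stayed. The T3+T4 rise was not called with the hepatocyte marker covariate, chosen after the data were seen (0.41, edgeR adjusted p = 0.178), among animals 54 to 85 (0.59, 0.214), without libraries holding acinar or muscle RNA (0.60, 0.170), with the library total in the fit (0.52, 0.0942) or without the livers of differing sex label (0.50, 0.0848). The lower level in vehicle than in control livers was not called among animals 54 to 85 (-0.34, edgeR adjusted p = 0.891), without libraries holding acinar or muscle RNA (-0.56, 0.180) or without the livers of differing sex label (-0.54, 0.101). It also missed the threshold with no filter on low counts (edgeR adjusted p = 0.0609) and with sex (0.0617), erythroid markers (0.0675) or hepatocyte markers (0.0677) as a covariate.

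Hcn3, which shares exonic sequence with Pklr on the other strand, moved in the same directions in the contrasts where Pklr was called. It averaged 26.1 ± 12.95 CPM in T3+T4 livers, 16.2 ± 8.6 in T4 livers, 14.6 ± 8.6 in T3 livers, 7.86 ± 2.82 in vehicle livers and 17.7 ± 8.1 in control livers (SD). It was called in T3+T4 against vehicle livers (log2 fold change 1.73 ± 0.43, edgeR adjusted p = 0.00660) and not in vehicle against control livers (-1.17 ± 0.46, edgeR adjusted p = 0.102). T4 against vehicle was positive for both genes (1.03 for Hcn3 and 0.39 for Pklr). T3 against vehicle gave 0.89 for Hcn3 and 0.02 for Pklr, and T3+T4 against control gave 0.56 and -0.01. None of these was called. The library kit marks strand, but whether the counting used it was not given, so reads of these genes cannot be separated where they overlap. What part Hcn3 reads have in the Pklr counts was not tested.

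**Figure D3:**
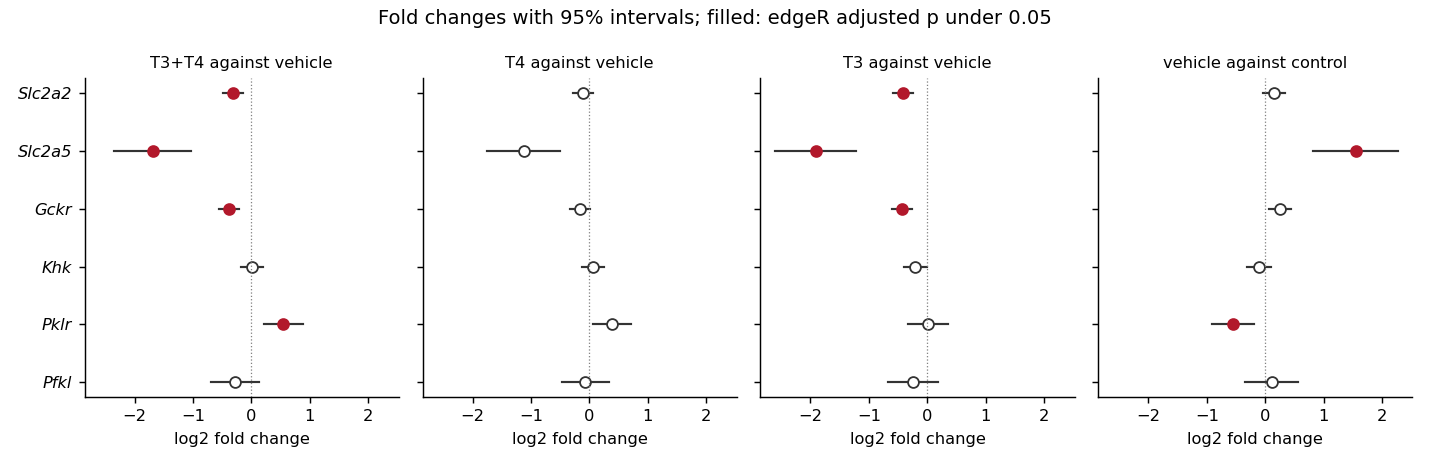
Log2 fold change with its 95% interval for each of the 6 genes in the comparisons shown as panels; filled points passed an edgeR adjusted p under 0.05. Slc2a5 has the largest changes (1.54 for vehicle against control and -1.91 for T3 against vehicle), Slc2a2 and Gckr lie near -0.4 for T3 against vehicle, and Khk and Pfkl have no filled point.

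Khk, which commits fructose to its own pathway, was not called in any contrast. Vehicle livers held 152, 171, 148, 186 and 140 CPM, against 186, 155, 173, 166 and 178 CPM in control livers. T3+T4 livers ran from 139 through a median of 161 to 174 CPM, T4 livers from 144 through 162 to 202 CPM and T3 livers from 102 through 138 to 167 CPM. T3 livers had the lowest group mean, but every group overlapped the others. The log2 fold change was -0.11 for vehicle against control (95% interval -0.31 to 0.10), 0.06 for T4 against vehicle (-0.13 to 0.24), -0.21 for T3 against vehicle (-0.40 to -0.01) and 0.01 for T3+T4 against vehicle (-0.18 to 0.20).

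Pfkl, the liver phosphofructokinase subunit, varied more within groups than between them. Vehicle livers held 85.9, 87.2, 77.0, 152 and 96.1 CPM, against 104, 69.4, 98.0, 91.3 and 99.5 CPM in control livers. T3+T4 livers ran from 56.9 through a median of 82.2 to 96.1 CPM, T4 livers from 55.0 through 86.2 to 154 CPM and T3 livers from 60.2 through 75.1 to 127 CPM. All groups overlapped. The log2 fold changes were 0.11 for vehicle against control (95% interval -0.35 to 0.56), -0.07 for T4 against vehicle (-0.48 to 0.34), -0.25 for T3 against vehicle (-0.68 to 0.19) and -0.28 for T3+T4 against vehicle (-0.70 to 0.14), none of them called. Without vehicle animal 55 the value for vehicle against control turned to -0.09, and those for T3 and T3+T4 against vehicle were -0.04 and -0.08. With an erythroid covariate vehicle against control was 0.41 (edgeR adjusted p = 0.0793). Against vehicle, the same setting gave -0.38 for T4 (edgeR adjusted p = 0.168), -0.33 for T3 (0.123) and -0.36 for T3+T4 (0.0535), none of them called.

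The rest of the pathway was read from lists of 58 genes, of which 57 were tested and Hkdc1 did not pass the filter. Over all lists, 4 genes were higher and 6 lower in T3+T4 against vehicle livers, 0 higher and 1 lower in T4 against vehicle livers, 5 higher and 4 lower in T3 against vehicle livers, and 7 higher and 3 lower in vehicle against control livers. As shares of the 57 genes, these were 7.02% higher and 10.5% lower with T3+T4 (7.33% and 8.45% of all genes), 0.0% and 1.75% with T4 (0.41% of all genes in either direction), 8.77% and 7.02% with T3 (3.53% and 3.24% of all genes), and 12.3% and 5.26% in vehicle livers (4.92% and 4.71% of all genes). The T3+T4 shares were thus near those over all genes, and with so few genes none of these counts was taken as particular to the lists. Among the 11 other hexose carriers, 2 were higher in vehicle than in control livers and none lower, with a median log2 fold change of 0.40 over the list, against 0.01 over all genes. The 2 were Slc2a6, a lysosomal carrier (1.81 ± 0.92 CPM in vehicle livers and 0.823 ± 0.224 in control livers, SD; edgeR adjusted p = 0.0378), and Slc2a12 (2.10 ± 1.10 and 0.868 ± 0.390 CPM; edgeR adjusted p = 0.0473), both at low levels. Slc2a6 was also higher in T4 than in control livers (1.83 ± 0.85 CPM; edgeR adjusted p = 0.0392). Against vehicle livers, T3 and T3+T4 livers each had 1 carrier lower, in both cases Slc2a9, a urate carrier (125 ± 6 CPM in T3+T4, 117 ± 22 in T3 and 150 ± 8 in vehicle livers; edgeR adjusted p = 0.0326 for T3+T4 and 0.0140 for T3). Slc5a1, the intestinal and renal sodium-glucose carrier, was called higher in T3+T4 than in T4 livers (edgeR adjusted p = 0.0354), but animal 78 held 40.3 CPM of it and the other T3+T4 livers at most 4.78; animal 78 also had the highest sum of intestinal and kidney markers, 148 CPM, where the other T3+T4 livers had at most 72.4 CPM.

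Among the 6 hexose kinases tested, Galk1, which phosphorylates galactose, moved with Slc2a2 and Gckr. It averaged 125 ± 8 CPM in T3+T4 livers, 170 ± 18 in T4 livers, 131 ± 16 in T3 livers, 171 ± 8 in vehicle livers and 141 ± 14 in control livers (SD). It was higher in vehicle than in control livers (edgeR adjusted p = 0.0405), lower than in vehicle livers with T3 (0.00509) and T3+T4 (0.000258), higher in T4 than in T3 livers (0.0123) and in T4 than in control livers (0.0499), and lower in T3+T4 than in T4 livers (0.000189). Hk3, a hexokinase of myeloid cells, was higher in T3 than in vehicle livers (10.4 to 48.8 CPM and 7.27 to 16.2 CPM; edgeR adjusted p = 0.0343). The 10 neutrophil markers summed to 85.2 to 448 CPM in T3 livers and 98.5 to 334 CPM in vehicle livers, and the highest Hk3 value, 48.8 CPM, was in T3 animal 61, which had the lowest neutrophil sum of the T3 livers. The 10 Kupffer cell markers summed to 1282 to 1583 CPM in T3 livers, with 1538 CPM in animal 61, and to 949 to 1447 CPM in vehicle livers. Of these markers 1, Timd4, was called higher in T3 than in vehicle livers (edgeR adjusted p = 0.0444) and none lower. What part myeloid RNA has in the Hk3 values was not tested.

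On the list for the fructose and polyol pathways, Akr1b3, aldose reductase, which starts the conversion of glucose to fructose through sorbitol, was lower in vehicle than in control livers (7.83 ± 1.52 and 11.8 ± 2.7 CPM; edgeR adjusted p = 0.0163). It was higher in T3 (11.3 ± 1.9 CPM; edgeR adjusted p = 0.0282) and in T3+T4 livers (14.0 ± 2.1 CPM; 0.000244) than in vehicle livers, and higher in T3+T4 than in T4 livers (10.4 ± 0.9 CPM; 0.0274). The triokinase gene Tkfc, listed under its older symbol Dak, Sord and Glyctk were not called in any contrast.

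The 17 other glycolysis genes had 3 higher and 0 lower in vehicle against control livers (4.92% and 4.71% of all genes). They had 2 higher and 1 lower with T3 against vehicle (3.53% and 3.24% of all genes). With T3+T4 against vehicle they had 1 higher and 2 lower (7.33% and 8.45% of all genes). Aldoa, the aldolase common to most tissues, averaged 99.6 ± 6.0 CPM in T3+T4 livers, 142 ± 34 in vehicle livers and 102 ± 15 in control livers (SD) and was called in T3+T4 against vehicle (edgeR adjusted p = 0.00423) and in vehicle against control (0.0197). Ldha, lactate dehydrogenase A, was lower with T3+T4 (289 ± 20 CPM) and with T3 (302 ± 21 CPM) than with vehicle (359 ± 18 CPM; edgeR adjusted p = 0.000269 and 0.00828). Pfkfb3, which makes the activator of phosphofructokinase, was higher with T3+T4 (35.4 ± 6.8 CPM) and with T3 (40.9 ± 10.8 CPM) than with vehicle (23.7 ± 3.5 CPM; edgeR adjusted p = 0.0168 and 0.00582). Gpi1, which turns glucose 6-phosphate into fructose 6-phosphate, was higher in vehicle than in control livers (130 ± 10 and 106 ± 6 CPM; edgeR adjusted p = 0.0438), as was Pfkm, the muscle phosphofructokinase subunit (36.3 ± 7.2 and 27.7 ± 2.7 CPM; 0.0457). Gpi1 was also higher in T4 livers (137 ± 15 CPM) than in control livers (edgeR adjusted p = 0.0146). Ldha, Aldoa and Gpi1 were lower in T3+T4 than in T4 livers (edgeR adjusted p = 0.00174, 0.0145 and 0.0147). Eno3, muscle enolase, was higher with T3 than with vehicle (17.0 ± 9.1 and 8.73 ± 0.90 CPM; edgeR adjusted p = 0.0345). The 8 skeletal muscle markers summed to 5.34 to 459 CPM in T3 livers, 2.02 to 11.7 CPM in vehicle livers and 1.84 to 3.22 CPM in control livers, and the highest Eno3 values among T3 livers, 33.1 and 20.6 CPM, were in animals 64 and 60, which had the highest muscle sums. What part muscle RNA has in the Eno3 and Pfkm values was not tested.

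**Figure D4:**
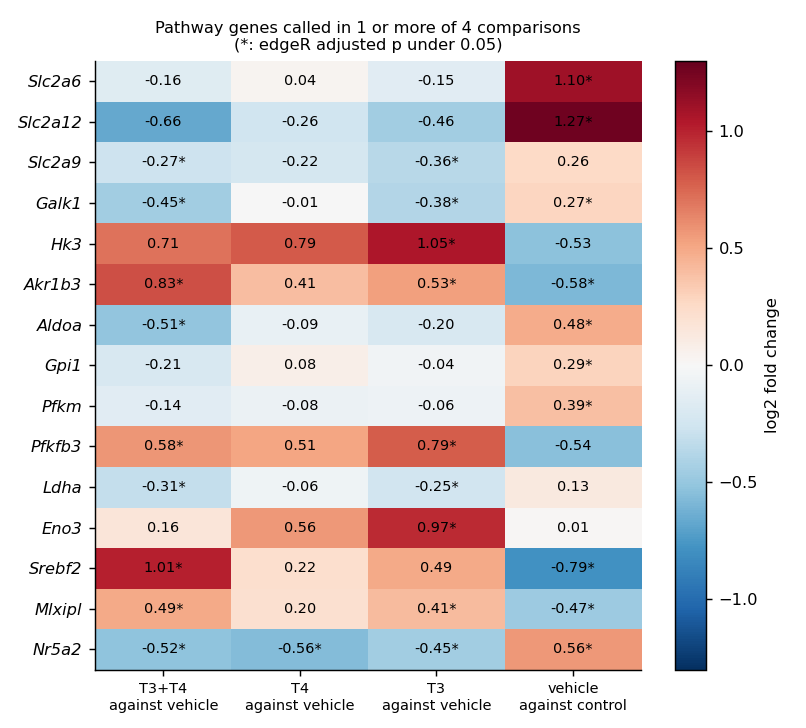
Log2 fold change, in colour, of pathway genes, named by the rule for the lists, called in at least 1 of 4 comparisons (columns), with stars at an edgeR adjusted p under 0.05. Galk1, Ldha and Nr5a2 are lower and Akr1b3, Pfkfb3 and Mlxipl higher in the T3 and T3+T4 columns against vehicle, and the column of T4 against vehicle has 1 star, for Nr5a2.

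Regulators of these genes were read in the same way. Mlxipl encodes ChREBP, which raises Pklr in response to carbohydrate. Mlxipl averaged 231 ± 31 CPM in T3+T4 livers, 220 ± 9 in T3 livers, 165 ± 24 in vehicle livers and 228 ± 41 in control livers (SD), and was called lower in vehicle than in control livers (edgeR adjusted p = 0.00938) and higher with T3+T4 (0.00251) and T3 (0.0227) than with vehicle. Pklr was called in the same direction in the first 2 of these contrasts but not with T3. Its mean was 124 ± 39 CPM in T3 livers and 123 ± 12 in vehicle livers (SD). Whether Mlxipl bears on the Pklr levels was not tested. Srebf2, the regulator of cholesterol synthesis, averaged 176 ± 30 CPM in T3+T4 livers, 102 ± 11 in T4 livers, 87.3 ± 13.2 in vehicle livers and 151 ± 32 in control livers, and was called in T3+T4 against vehicle (edgeR adjusted p = 5.43e-05), in T3+T4 against T4 (0.000312), in vehicle against control (0.00261) and in T4 against control (0.0263). Txnip, Arrdc4, Srebf1, Mlx, Mlxip, Usf1 and Usf2 were not called in any contrast. Nr5a2, a liver nuclear receptor, was the 1 gene on the lists called in T4 against vehicle livers: it averaged 171 ± 24 CPM in T3+T4 livers, 166 ± 17 in T4 livers, 180 ± 25 in T3 livers, 245 ± 31 in vehicle livers and 166 ± 14 in control livers. Its edgeR adjusted p was 0.000496 for T3+T4, 0.00387 for T4 and 0.00747 for T3 against vehicle, and 0.000976 for vehicle against control.

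The genes whose centred log2 levels came closest to each called member over the 31 libraries were found by the root mean square difference, which is a description of these libraries and carries no test. Slc2a2 was nearest to Acsl1 (0.0946), Hsd11b1 (0.107) and Ugp2 (0.107), and Gckr to Abhd14b (0.0806), Xylb (0.0877) and Pgm2 (0.0899). Slc2a5 was nearest to Ces1e (0.486), Slc22a15 (0.491) and Enpep (0.494), which left most of its spread of 0.754 around its own mean. Among the genes nearest to Pklr were Hlf (0.221) and Paqr7 (0.225), against its own spread of 0.375. Ces1e, for example, averaged 62.1 CPM in T3+T4, 93.6 in T4, 62.5 in T3, 131 in vehicle and 67.1 in control livers, the same order of vehicle and T4 above the other groups as Slc2a5. Paqr7 averaged 164 CPM in T3+T4, 147 in T4, 122 in T3, 106 in vehicle and 148 in control livers, with vehicle lowest as for Pklr. These samples share libraries, depth and any difference in cell makeup.

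**Figure D5:**
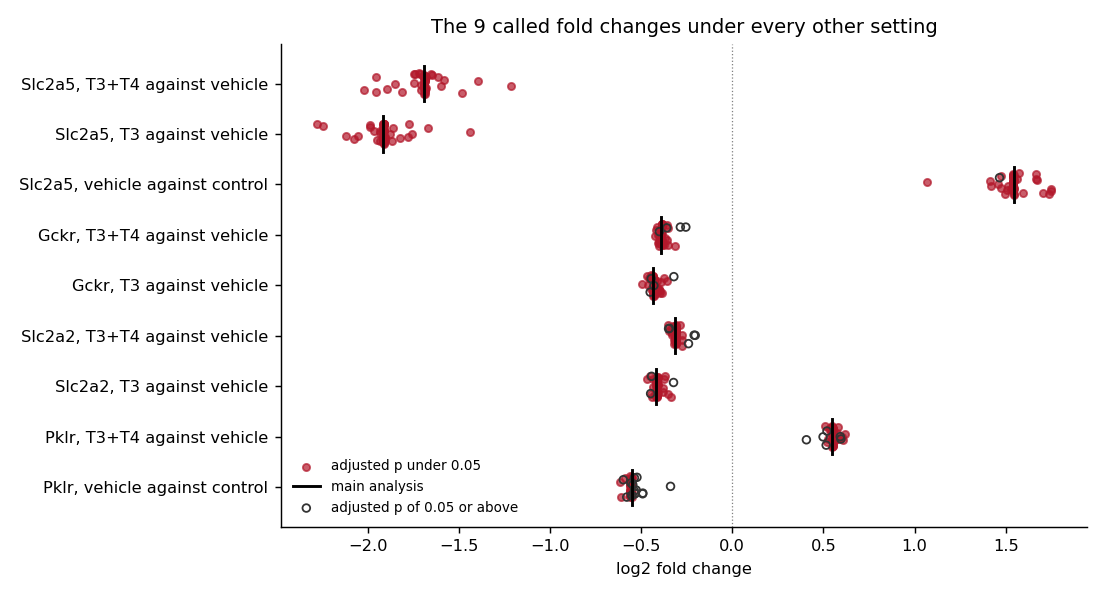
The 9 called log2 fold changes (rows) in the main analysis and under every other setting and omission of 1 library, with the main value as a vertical bar and filled points where the adjusted p stayed under 0.05. The T3 and T3+T4 falls of Slc2a5 stay called throughout, while those of Slc2a2 and Gckr and both Pklr changes lose their call in some settings with sizes that keep their sign.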

How the data were processed

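Liver RNA was made into stranded mRNA libraries, per the labels' protocols. The submitters' processing notes name bcl2fastq, Trimmomatic, BWA 0.7.10, DESeq and the build GRCh38, while the file headers name mm10; 97.3% of the gene IDs are in GENCODE M21. The authors deposited a table of counts per gene, in which the smallest value is 1 in every library and 50.1% of values are 1; the counts were used as deposited. Which strand was counted and how reads were assigned to genes are not given in the sources used here.

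Counts were filtered with filterByExpr and scaled by TMM in edgeR 4.0.16 (R 4.3.3), and 11 contrasts were fitted over 17057 genes. The replicate number is the animal number; whether pups shared a litter is not given, so p-values measure the spread between pups. The 6 genes, the lists and the motifs were chosen with earlier results of these data known. Named besides them are up to 3 called genes with the smallest adjusted p per pathway list and contrast, and the 3 nearest genes; some of these are not reported here. The fit was tested on simulated counts. Alternatives were DESeq2 1.42.0, other scalings and filters, covariates, subsets of animals and leaving out each of 31 libraries. Count totals of 4383769 to 7158919 limit Slc2a5 most. For promoters, RefSeq windows were used; protein sequences were not used here.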

Additional observations from a re-analysis of the deposited data

Results flagged for a closer look

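In 4 of the 30 sets of values made by 6 genes in 5 groups, 1 liver stood apart from the rest of its group by Dixon's criterion at the 95% level, which chance meets in about 1 set in 20. Khk was 139 CPM in T3+T4 animal 78, the lowest of its group, where the other T3+T4 livers had 160 to 174 CPM; this animal also held the most intestinal and kidney marker RNA. Pklr was 144 CPM in vehicle animal 2019, the highest of its group, where the other vehicle livers had 114 to 122 CPM. Pfkl was 56.9 CPM in T3+T4 animal 77, where the other T3+T4 livers had 79.3 to 96.1 CPM. Pfkl was 152 CPM in vehicle animal 55, where the other vehicle livers had 77.0 to 96.1 CPM; the same animal had the highest Slc2a5, Slc2a2 and Gckr of all livers.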

How the results depend on the processing

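Of the 6 genes, 2 were called in vehicle against control livers, 0 in T4, 3 in T3 and 4 in T3+T4 against vehicle livers. With animals 54 to 85 alone these counts were 0, 0, 1 and 1, and without libraries holding acinar or muscle RNA 1, 0, 1 and 1. With the hepatocyte marker covariate, chosen after the data were seen, they were 1, 0, 1 and 1. How many of all genes were called under each setting is not given here, so these counts are not read as particular to the members. Adding each library's log2 total to the fit left a T3+T4 count of 1; omitting single libraries gave 3 to 4. The vehicle against control count was 1 with no filter on low counts, with a sex covariate and without the 4 animals whose sex label differed from their sex-linked genes, and 1 to 3 when single libraries were left out. DESeq2 called 1 member in T4 against vehicle, where leaving out single libraries gave 0 to 1 (1 without vehicle animal 67, Slc2a5, adjusted p = 0.0360). The count of 0 for T4 against T3 became 1 with library total scaling and with DESeq2, and 0 to 3 when single libraries were left out (3 without T3 animal 62, 1 without T4 animal 58 or 71). The count of 0 for T3+T4 against T4 became 1 with library total scaling, with a mean of at least 5 CPM, with only the groups compared and with DESeq2, and 0 to 2 when single libraries were left out (2 without T3 animal 61; 1 without T3 animal 62, T4 animal 46, 58 or 71 or control animal 42). T3 against control gave 0 to 1 (Khk without T3 animal 62). The subsets of animals leave fewer livers, while the covariate settings keep all 31 libraries. What caused these shifts was not tested. Of the 9 called fold changes, 0 reversed in any setting. Gckr in vehicle against control was called without T3 animal 61 (adjusted p = 0.0417) and with an erythroid covariate (0.0450). No paired analysis was possible because no animal number is shared between groups.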
